A study of Mus musculus with 21 samples.

Results

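Focal DNA methylation changes in APCMin mouse adenoma were examined at 10 genes that mark intestinal stem cells or answer to Wnt signalling, namely *Lgr5*, *Ascl2*, *Axin2*, *Cd44*, *Sox9*, *Ephb2*, *Ephb3*, *Smoc2*, *Tnfrsf19* and *Rnf43*. The genes were chosen by name, with earlier results of these data known, and their regions by position. Every listed 500 bp window that overlapped the gene or the 5000 bp upstream of it in the mm9 genome was taken. So was every differentially methylated region (DMR) merged from such windows that overlapped the same stretch. By this rule 7 of the 10 genes held 24 of the 17690 listed windows, merged into 17 of the 13980 listed DMRs. The other 3 genes, *Lgr5*, *Ascl2* and *Axin2*, held none.

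Methylated DNA was immunoprecipitated with an antibody to 5-methylcytidine and sequenced (MeDIP-seq), so that a high signal marks DNA rich in methylated CpG. The tissue was ileum of male mice on the C57BL/6J (B6) strain, 15 to 19 weeks old. Normal intestine came from 3 wild-type B6 mice (B1, B2 and B3) and from 3 APCMin mice (N4, N5 and N6), which carry 1 mutated copy of the tumour suppressor gene Apc in all cells, and APCMin mice also gave 5 adenomas, named Ad4, Ad4-1, Ad5, Ad6 and Ad7. Ad4 and Ad4-1 were separate adenomas of the mouse that gave N4, Ad5 and Ad6 came from the mice of N5 and N6, and Ad7 had no normal partner. Samples were whole pieces of tissue, so a changed share of one cell type and changed methylation within cells could not be told apart. The signal is given as reads per 1000000 aligned reads (rpm), and MeDIP libraries held 13878615 to 26297510 aligned reads. Expression of these genes was not analysed here, and the cell types in the samples were therefore not checked by markers.

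Wnt ligands at the base of the intestinal crypt stabilise beta-catenin, which enters the nucleus and activates target genes together with TCF/LEF factors. APC is part of the complex that degrades beta-catenin, and its loss switches the programme on without a ligand. *Lgr5*, *Ascl2*, *Smoc2* and *Tnfrsf19* are active in the stem cells at the crypt base, *Cd44*, *Sox9*, *Ephb2* and *Ephb3* in the wider crypt, and *Axin2* and *Rnf43* encode feedback inhibitors of the pathway.

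The DNA under 5 of the DMRs is shown with CpG sites in capitals, as 300 bp from the centre of each DMR on the plus strand of mm9. The first 3 are the DMRs of the group that touched a CpG island, a stretch of at least 300 bp with at least 50% GC and at least 0.6 of the CpG sites that its base composition predicts. The fourth is the DMR with the largest log2 ratio over all samples and the fifth the gain with the highest signal. A CpG island was touched by 16.7% of the 12 hypomethylated DMRs of these genes, against 9.7% of all listed ones. For hypermethylated DMRs the shares were 20.0% of 5 and 14.5%. Among DMRs of 500 bp alone, 0.0% of the 8 hypomethylated DMRs of these genes touched an island, against 8.05% of all listed ones. For hypermethylated DMRs of 500 bp the shares were 25.0% of 4 and 12.2%. DMRs are numbered along the chromosome within each gene and direction.
Ephb3 hypo 1: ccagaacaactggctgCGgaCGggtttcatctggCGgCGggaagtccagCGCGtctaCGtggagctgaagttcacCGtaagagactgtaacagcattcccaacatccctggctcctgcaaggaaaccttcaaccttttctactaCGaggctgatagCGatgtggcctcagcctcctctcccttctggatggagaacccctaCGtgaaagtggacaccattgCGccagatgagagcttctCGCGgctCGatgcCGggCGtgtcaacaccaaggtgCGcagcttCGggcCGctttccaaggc
Ephb2 hypo 5: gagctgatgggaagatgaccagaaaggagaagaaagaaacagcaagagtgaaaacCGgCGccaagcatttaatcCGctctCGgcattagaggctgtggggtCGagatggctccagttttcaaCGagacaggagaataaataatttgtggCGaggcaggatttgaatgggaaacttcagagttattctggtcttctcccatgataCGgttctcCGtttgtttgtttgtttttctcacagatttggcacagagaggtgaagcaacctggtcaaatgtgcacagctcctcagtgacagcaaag
Sox9 hyper 1: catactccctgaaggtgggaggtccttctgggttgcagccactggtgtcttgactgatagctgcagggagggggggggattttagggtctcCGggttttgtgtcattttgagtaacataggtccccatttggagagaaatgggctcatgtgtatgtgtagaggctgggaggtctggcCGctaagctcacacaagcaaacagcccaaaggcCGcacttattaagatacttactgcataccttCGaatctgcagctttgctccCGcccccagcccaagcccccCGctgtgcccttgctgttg
Cd44 hypo 2: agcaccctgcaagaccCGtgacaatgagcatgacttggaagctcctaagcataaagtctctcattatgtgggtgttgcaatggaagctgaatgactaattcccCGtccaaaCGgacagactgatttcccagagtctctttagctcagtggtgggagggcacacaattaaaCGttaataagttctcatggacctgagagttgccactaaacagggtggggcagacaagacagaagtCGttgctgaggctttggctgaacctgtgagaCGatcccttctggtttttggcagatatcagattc
Smoc2 hyper 1: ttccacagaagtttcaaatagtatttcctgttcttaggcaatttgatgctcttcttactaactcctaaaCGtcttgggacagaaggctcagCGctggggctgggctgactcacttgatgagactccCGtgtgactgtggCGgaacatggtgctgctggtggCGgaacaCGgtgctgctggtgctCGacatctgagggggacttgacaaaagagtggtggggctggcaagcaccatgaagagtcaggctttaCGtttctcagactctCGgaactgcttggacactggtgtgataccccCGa
The *Ephb3* stretch, chr16:21214475-21214774, held 20 CpG sites and the *Smoc2* stretch, chr17:14498975-14499274, held 10. The *Ephb2* stretch, chr4:136359725-136360024, held 9, and those of *Sox9*, chr11:112639600-112639899, and *Cd44*, chr2:102702850-102703149, held 6 each.

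Of the 17 DMRs, 12 were hypomethylated and 5 hypermethylated in adenoma. Losses thus made up 70.6%, near the 63.3% of all listed DMRs. *Cd44*, *Ephb3* and *Rnf43* held hypomethylated DMRs alone, *Sox9* a hypermethylated one alone, and *Ephb2*, *Smoc2* and *Tnfrsf19* held both. *Ephb2* held 7 of the 17 DMRs and was the longest of the genes with 188.4 kb. A hypermethylated DMR was found at 4 of the 10 genes against 8.25% of all 37273 annotated genes, a hypomethylated one at 6 of 10 against 11.1%, and either at 7 of 10 against 16.6%. Among protein coding genes 23.5% held either.

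These genes are long, and a longer gene has more room for a DMR. The median length of gene and upstream stretch was 82.9 kb for the 10 genes and 20.4 kb for protein coding genes. Per 100 kb of this length the 10 genes held 2.11 DMRs and protein coding genes 0.79. The density was 0.621 against 0.308 for hypermethylated DMRs and 1.49 against 0.483 for hypomethylated ones. These shares and densities are descriptions of 10 genes, with no test. The genes were chosen with earlier results of these data known, which may have favoured genes with DMRs.

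**Figure D1:**
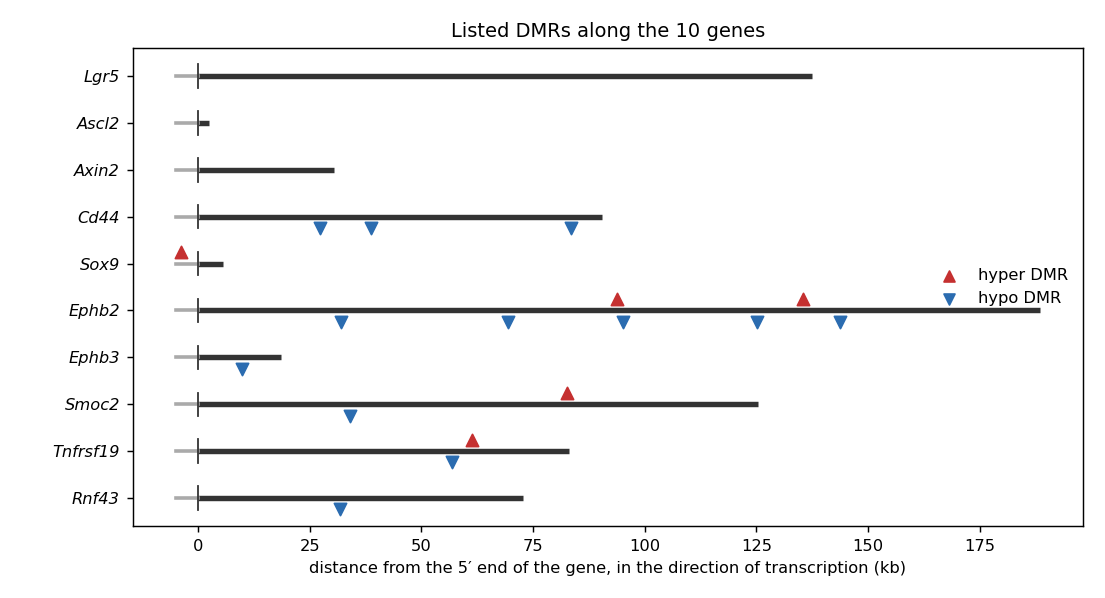
Position of the DMRs along each of the 10 genes. The x axis gives the distance in kb from the 5′ end of the gene in the direction of transcription, the dark bar is the gene, the grey bar the 5000 bp upstream, and triangles pointing up and down are hypermethylated and hypomethylated DMRs. All DMRs lie inside genes except that of *Sox9*, 3.8 kb upstream, and *Lgr5*, *Ascl2* and *Axin2* carry none.

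No DMR lay in a promoter, taken as 1000 bp upstream to 500 bp downstream of a start site, of any transcript of these genes. Over all genes 1.53% had a DMR in the promoter of the gene. Of the 17 DMRs, 15 were intronic, that of *Ephb3* overlapped an exon, and that of *Sox9* lay upstream. A single window made up 12 of the 17.

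Adenoma and normal samples are compared as log2 ratios of the group means after adding 0.05 rpm. Every window had been listed by the authors' rank test of adenoma against normal tissue on these same samples, with a minimum ratio and a minimum signal. The difference itself is therefore given as a description with no test. The log2 ratio ran from -1.02 to -0.56 over the 12 hypomethylated DMRs, with a median of -0.73, where all 8845 listed hypomethylated DMRs had a median of -0.64. It ran from 0.41 to 0.58 over the 5 hypermethylated DMRs, with a median of 0.42 against 0.55 for all 5135.

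In 6 of the 12 hypomethylated DMRs the values of the 5 adenomas and of the 6 normal samples did not overlap, against 51.9% of all hypomethylated DMRs, and in 2 of the 5 hypermethylated DMRs against 44.5%. Counted by windows these were 8 of 18 against 51.6% and 1 of 6 against 43.6%. The shares at these genes were thus near or below those of the whole list. At the *Sox9* and *Smoc2* gains, *Cd44* hypo 3 and *Ephb2* hypo 1 the groups were apart by the smallest step of the deposited values alone.

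**Figure D2:**
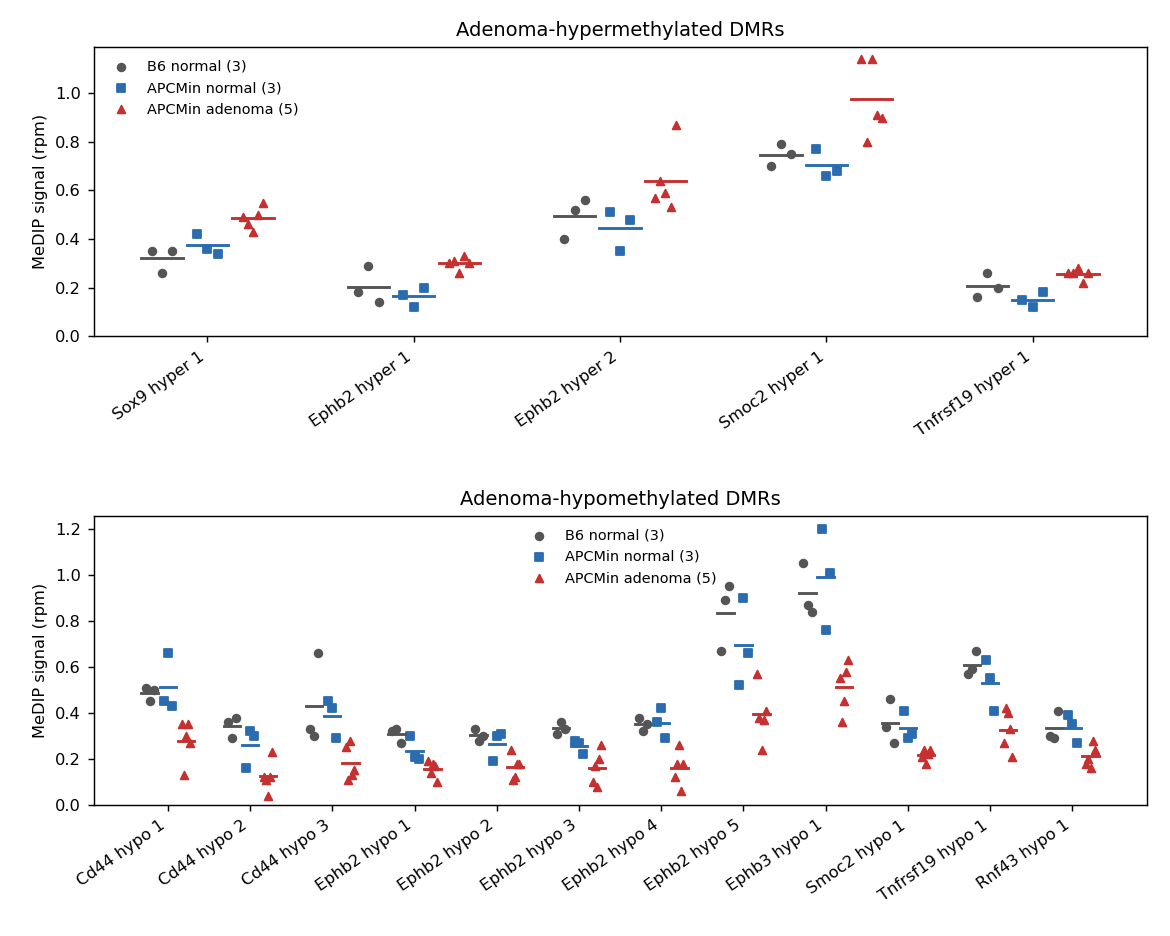
MeDIP signal in rpm of every sample at the 5 hypermethylated (top) and 12 hypomethylated (bottom) DMRs. Circles are the 3 B6 normal samples, squares the 3 APCMin normal samples, triangles the 5 adenomas, and each bar is a group mean. The adenomas lie apart from all normal samples at *Sox9* and *Smoc2* in the top panel and at 6 DMRs in the bottom panel. At *Sox9* and *Smoc2* in the top panel, *Cd44* hypo 3 and *Ephb2* hypo 1 they do so by the smallest step of the deposited values alone.

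*Ephb3* encodes a receptor for ephrin-B ligands that helps keep cells in place along the crypt. It held the DMR with the most CpG sites, 51 in 1250 bp, merged from 4 windows at chr16:21214001-21215250. The DMR covered the third of 16 exons, chr16:21214398-21215070, with parts of the introns on both sides, and its centre lay 9.8 kb from the 5′ end. The signal was 1.05, 0.87 and 0.84 rpm in B1, B2 and B3, 1.20, 0.76 and 1.01 rpm in N4, N5 and N6, and 0.55, 0.36, 0.45, 0.58 and 0.63 rpm in Ad4, Ad4-1, Ad5, Ad6 and Ad7. All adenomas were below all normal samples. The means were 0.955 ± 0.162 rpm (SD, n = 6) in normal tissue and 0.514 ± 0.108 rpm (SD, n = 5) in adenoma, a log2 ratio of -0.83.

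The signal was highest in the middle of the *Ephb3* DMR. In the second window it ran from 1.01 to 1.47 rpm in normal samples and from 0.38 to 0.87 rpm in adenomas, and in the third from 0.98 to 1.52 rpm and from 0.39 to 0.82 rpm. In 3 of the 4 windows the groups did not overlap. In the last window adenomas reached 0.49 rpm and the lowest normal sample, B3, had 0.47 rpm. Each sample held 26.0 to 93.5 fragments of 300 bp over this DMR, the longest of the 17.

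**Figure D3:**
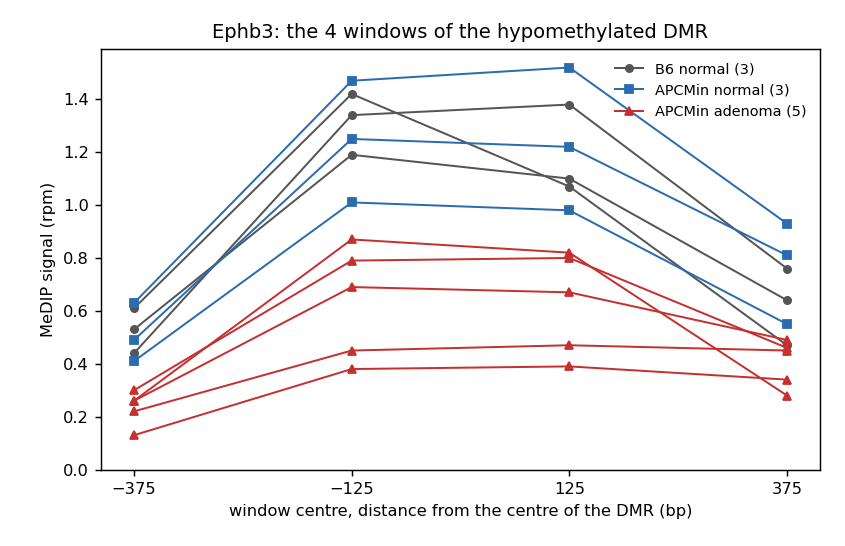
MeDIP signal across the 4 overlapping windows of the *Ephb3* DMR. The x axis is the distance of the window centre from the centre of the DMR in bp, the y axis the signal in rpm, and each line is 1 sample, with circles for B6 normal, squares for APCMin normal and triangles for adenoma. All adenomas run below all normal samples in the first 3 windows, and the groups overlap in the last.

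*Ephb2*, a receptor of the same family and a widely used marker of crypt base cells, held 5 hypomethylated and 2 hypermethylated DMRs, all in introns. The loss with the largest ratio, hypo 4 at chr4:136322251-136322750, lay in intron 3, 69.4 kb from the 5′ end. It had 0.38, 0.32 and 0.35 rpm in B1, B2 and B3, 0.36, 0.42 and 0.29 rpm in N4, N5 and N6, and 0.12, 0.18, 0.26, 0.06 and 0.18 rpm in Ad4, Ad4-1, Ad5, Ad6 and Ad7. Again all adenomas lay below all normal samples, with Ad6 lowest. The normal mean was 0.353 ± 0.0455 rpm (SD, n = 6) and the adenoma mean 0.160 ± 0.0748 rpm (SD, n = 5), a log2 ratio of -0.94.

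The *Ephb2* DMR nearest to the 5′ end, hypo 5 at chr4:136359501-136360250, lay 32.0 kb into the gene in intron 1 and touched a CpG island, with 19 CpG sites in 750 bp. Its signal was 0.67, 0.89 and 0.95 rpm in B1, B2 and B3, 0.52, 0.90 and 0.66 rpm in N4, N5 and N6, and 0.57, 0.38, 0.24, 0.37 and 0.41 rpm in Ad4, Ad4-1, Ad5, Ad6 and Ad7. Here Ad4 was above N4, the normal intestine of its own mouse, while the other 4 adenomas were below all normal samples. The means were 0.765 ± 0.172 rpm (SD, n = 6) and 0.394 ± 0.118 rpm (SD, n = 5), a log2 ratio of -0.88. Within the 5 libraries labelled MeDIP4 the ratio was -0.50.

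The larger gain at *Ephb2*, hyper 1 at chr4:136256251-136256750 in intron 3, started from a low signal. It was 0.18, 0.29 and 0.14 rpm in B1, B2 and B3, 0.17, 0.12 and 0.20 rpm in N4, N5 and N6, and 0.30, 0.31, 0.26, 0.33 and 0.30 rpm in Ad4, Ad4-1, Ad5, Ad6 and Ad7. The adenomas were close together, and only Ad5 fell below a normal sample, B2. The means were 0.183 ± 0.0596 rpm (SD, n = 6) and 0.300 ± 0.0255 rpm (SD, n = 5), a log2 ratio of 0.58.

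The remaining *Ephb2* DMRs comprised 3 losses, with log2 ratios of -0.64, -0.63 and -0.70, and 1 gain, with 0.41. The groups did not overlap at 1 of these 4, the loss nearest to the 3′ end, where they lay 0.01 rpm apart. The gain, hyper 2 at chr4:136298001-136298500, lay 1000 bp from the loss hypo 3 at chr4:136296501-136297000, in the same intron. At the loss the normal mean was 0.295 ± 0.0493 rpm (SD, n = 6) and the adenoma mean 0.162 ± 0.0736 rpm (SD, n = 5), while at the gain they were 0.470 ± 0.0795 rpm (SD, n = 6) and 0.640 ± 0.135 rpm (SD, n = 5). In the gain Ad7 stood highest with 0.87 rpm, and in the loss it was the highest adenoma with 0.26 rpm.

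*Cd44*, a surface receptor for hyaluronan and a Wnt target of the crypt, held 3 hypomethylated DMRs, all intronic. The largest log2 ratio of the 17 with all samples was at hypo 2, chr2:102702751-102703250, in intron 2 and 38.8 kb from the 5′ end. Its signal was 0.36, 0.29 and 0.38 rpm in B1, B2 and B3, 0.16, 0.32 and 0.30 rpm in N4, N5 and N6, and 0.12, 0.11, 0.04, 0.12 and 0.23 rpm in Ad4, Ad4-1, Ad5, Ad6 and Ad7. The groups overlapped because N4 was below Ad7. The means were 0.302 ± 0.0776 rpm (SD, n = 6) and 0.124 ± 0.0680 rpm (SD, n = 5), a log2 ratio of -1.02.

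This value rested on few reads. The 5 adenomas together held about 18.1 fragments of 300 bp there, and Ad5 about 1.23. The ratio was -0.85 without Ad5, where that of *Cd44* hypo 3 was -1.13, and -1.25 without Ad7. The other *Cd44* DMRs, in introns 1 and 13, had log2 ratios of -0.97 and -0.74, and at both of them all adenomas lay below all normal samples, in intron 1 by 0.01 rpm at the closest. Over the 4 windows of *Cd44* the groups did not overlap in 3.

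*Sox9* encodes a transcription factor of crypt cells. Its single DMR, chr11:112639501-112640000, lay 3.8 kb upstream of the gene, touched a CpG island, and fell in an intron of BC006965, a long non-coding RNA gene on the minus strand. The signal was 0.35, 0.26 and 0.35 rpm in B1, B2 and B3, 0.42, 0.36 and 0.34 rpm in N4, N5 and N6, and 0.49, 0.46, 0.43, 0.50 and 0.55 rpm in Ad4, Ad4-1, Ad5, Ad6 and Ad7. All adenomas were above all normal samples, by 0.01 rpm at the closest, the last decimal of the deposited values. The means were 0.347 ± 0.0513 rpm (SD, n = 6) and 0.486 ± 0.0451 rpm (SD, n = 5), a log2 ratio of 0.43. With only the gene body or 1000 bp upstream counted, *Sox9* held no DMR.

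*Smoc2*, a secreted matrix protein found in Lgr5-positive stem cells, held a loss in intron 1 and a gain in intron 7, 48.0 kb apart. At the gain, chr17:14498751-14499500, the signal was 0.70, 0.79 and 0.75 rpm in B1, B2 and B3, 0.77, 0.66 and 0.68 rpm in N4, N5 and N6, and 1.14, 0.80, 1.14, 0.91 and 0.90 rpm in Ad4, Ad4-1, Ad5, Ad6 and Ad7. The groups did not overlap over the merged DMR, though Ad4-1 exceeded B2 by 0.01 rpm alone and the groups overlapped in both of its windows. The means were 0.725 ± 0.0524 rpm (SD, n = 6) and 0.978 ± 0.154 rpm (SD, n = 5), a log2 ratio of 0.41.

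At the *Smoc2* loss, chr17:14450001-14450750, the signal was 0.34, 0.46 and 0.27 rpm in B1, B2 and B3, 0.41, 0.29 and 0.31 rpm in N4, N5 and N6, and 0.21, 0.24, 0.18, 0.22 and 0.24 rpm in Ad4, Ad4-1, Ad5, Ad6 and Ad7. All adenomas lay below all normal samples over the DMR, although not in either of its windows. The means were 0.347 ± 0.0739 rpm (SD, n = 6) and 0.218 ± 0.0249 rpm (SD, n = 5), a log2 ratio of -0.57. This gene thus held a listed loss within its first intron and a listed gain further on. Its signal outside the listed windows was not analysed here.

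*Tnfrsf19*, a receptor of the tumour necrosis factor receptor family also called Troy, held a gain and a loss, both in intron 5. At the loss the signal was 0.57, 0.59 and 0.67 rpm in B1, B2 and B3, 0.63, 0.55 and 0.41 rpm in N4, N5 and N6, and 0.27, 0.42, 0.40, 0.33 and 0.21 rpm in Ad4, Ad4-1, Ad5, Ad6 and Ad7. Only N6 and Ad4-1 crossed, by 0.01 rpm. The means were 0.570 ± 0.0894 rpm (SD, n = 6) and 0.326 ± 0.0879 rpm (SD, n = 5), a log2 ratio of -0.72.

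At the *Tnfrsf19* gain, chr14:61604251-61604750, the signal was 0.16, 0.26 and 0.20 rpm in B1, B2 and B3, 0.15, 0.12 and 0.18 rpm in N4, N5 and N6, and 0.26, 0.26, 0.28, 0.22 and 0.26 rpm in Ad4, Ad4-1, Ad5, Ad6 and Ad7. B2 was as high as 3 of the adenomas and above Ad6. The means were 0.178 ± 0.0483 rpm (SD, n = 6) and 0.256 ± 0.0219 rpm (SD, n = 5), a log2 ratio of 0.42. Against the B6 mice alone the ratio was 0.25, and against the APCMin normal samples 0.61.

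*Rnf43* encodes a ubiquitin ligase that removes Wnt receptors from the cell surface. Its DMR, chr11:87507751-87508250, lay in intron 2, 31.8 kb from the 5′ end, and overlapped an annotated U6 small nuclear RNA on the minus strand. The signal was 0.30, 0.29 and 0.41 rpm in B1, B2 and B3, 0.39, 0.35 and 0.27 rpm in N4, N5 and N6, and 0.18, 0.20, 0.16, 0.28 and 0.24 rpm in Ad4, Ad4-1, Ad5, Ad6 and Ad7. Ad6 was above N6, the normal intestine of its own mouse, and the other adenomas were below all normal samples. The means were 0.335 ± 0.0572 rpm (SD, n = 6) and 0.212 ± 0.0482 rpm (SD, n = 5), a log2 ratio of -0.56, the smallest loss of the 12.

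For the 3 genes without a DMR the nearest listed ones lay outside the gene. *Axin2*, a scaffold of the beta-catenin destruction complex, had a hypomethylated DMR 3.7 kb downstream, with a normal mean of 0.287 rpm, an adenoma mean of 0.168 rpm and a log2 ratio of -0.63. *Lgr5*, the receptor for R-spondins that defines crypt base stem cells, had one 25.6 kb downstream with a log2 ratio of -0.45. *Ascl2*, a transcription factor of the same cells and the shortest of the genes with 2.4 kb, had its nearest DMR 163.3 kb upstream, a gain with a log2 ratio of 0.92. The deposited tables hold listed windows alone, so the signal over these 3 genes themselves was not analysed here.

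The direction of each DMR held in every adenoma, which the listing by rank favoured. All 5 adenomas were below the mean of the 6 normal samples at all 12 hypomethylated DMRs and above it at all 5 hypermethylated ones. Their median log2 ratio over the losses was -0.68 in Ad4, -0.87 in Ad4-1, -0.83 in Ad5, -0.61 in Ad6 and -0.67 in Ad7, where the medians over all listed losses ran from -0.69 to -0.57. Single values spread more widely. Ad4-1 had the lowest signal at 4 of the 12 losses, Ad5 at 5, Ad7 at 2, Ad6 at 1 and Ad4 at 0. Over all listed losses the shares of these adenomas were 28.7%, 23.4%, 24.2%, 16.0% and 17.3% in the same order, with ties counted.

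**Figure D4:**
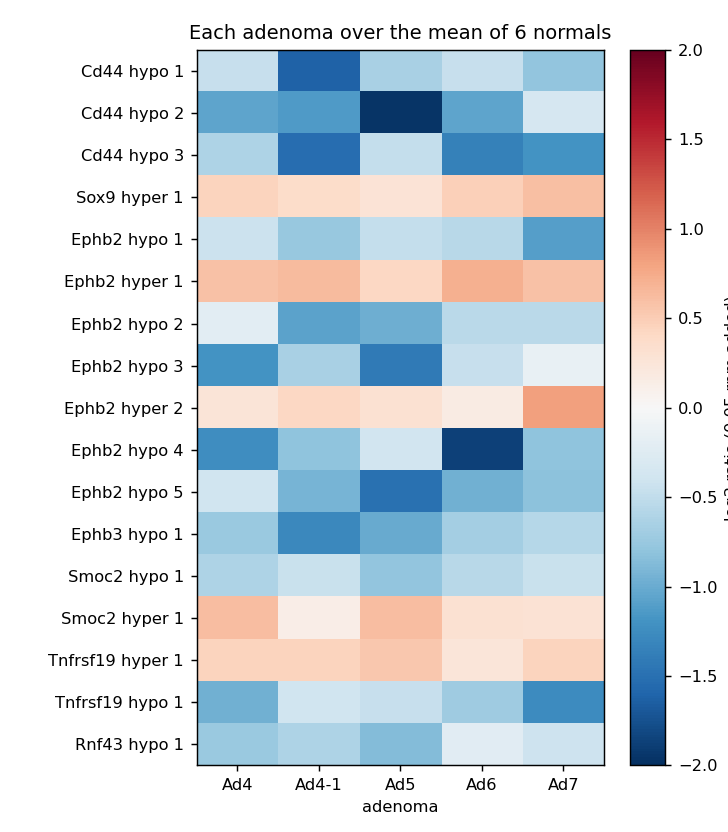
Log2 ratio of each adenoma over the mean of the 6 normal samples, after adding 0.05 rpm, at the 17 DMRs in rows. Blue cells are below and red cells above the normal mean. Every cell has the listed direction, and the darkest cells are *Cd44* hypo 2 in Ad5 with -1.97 and *Ephb2* hypo 4 in Ad6 with -1.87.

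Ad4 and Ad4-1 grew in the same mouse and differed at several of these genes. At *Cd44* hypo 1, chr2:102658001-102658750, Ad4 had 0.35 rpm and Ad4-1 had 0.13 rpm, and at *Ephb3* they had 0.55 and 0.36 rpm. Each adenoma was 1 sample, so this difference has no replicate check.

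The labels number the MeDIP libraries in 4 series without saying what a series is, and the series MeDIP4 alone held several samples of both tissues, 2 adenomas and 3 normal samples. Within it the log2 ratio ran from -1.11 to -0.49 over the losses and from 0.31 to 0.43 over the gains, and kept its direction at all 17 DMRs. Compared within animals 4, 5 and 6, every adenoma was below its own normal intestine at 9 of the 12 losses and above it at all 5 gains. Counted by windows, the listed side was kept within these animals at 20 of 24 windows, against 91.0% of all listed windows. The listing used these same samples and so favoured these directions. With the animal as a replicate block in limma, over the 7 samples of these animals, the log2 difference ran from -1.09 to -0.39 over the losses and from 0.28 to 0.72 over the gains. At *Ephb2* hypo 1 it was -0.39 with the block and -0.37 in the same 7 samples without it, against -0.64 with all samples. At *Sox9* these values were 0.28, 0.30 and 0.44.

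**Figure D5:**
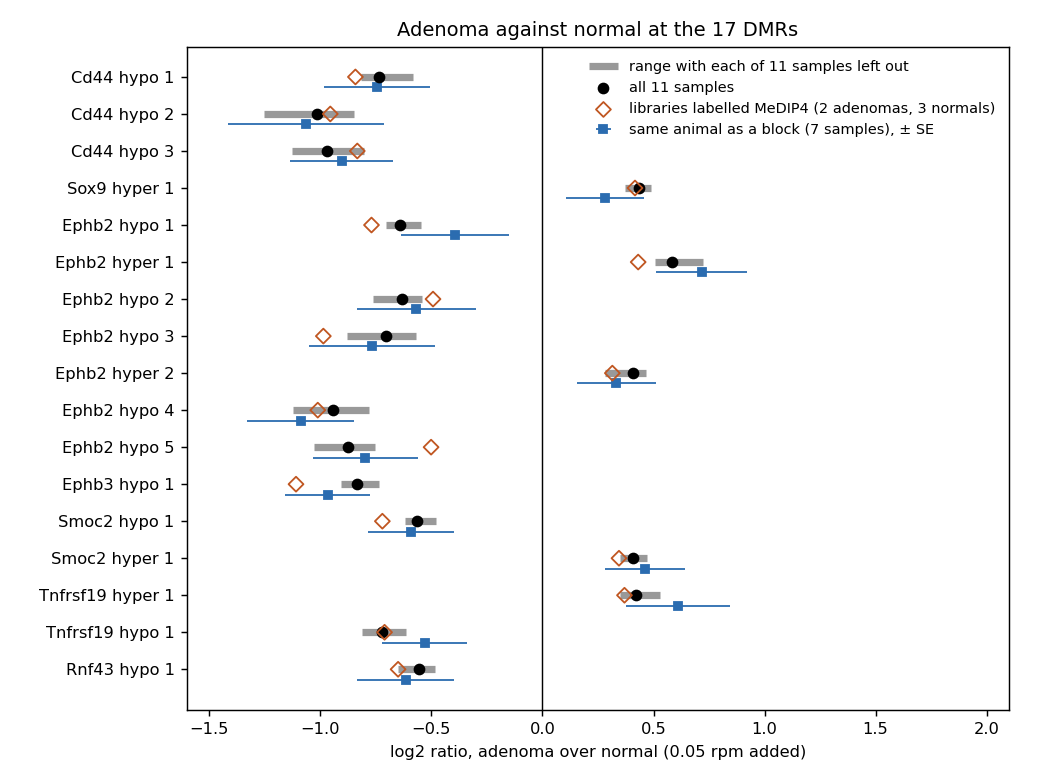
Log2 ratio of adenoma over normal at the 17 DMRs. Black dots use all 11 samples, grey bars span the values with each sample left out in turn, diamonds use the 5 libraries labelled MeDIP4, and squares with bars (± SE) have the animal as a block in limma. No value crosses 0, and the diamond of *Ephb2* hypo 5 lies furthest from its dot towards 0.

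Both kinds of normal intestine gave the same direction against adenoma, which the listing against both together favoured. Against the 3 B6 samples the log2 ratio of the losses had a median of -0.80 and of the gains 0.37, and against the 3 APCMin normal samples -0.68 and 0.47. These comparisons share the adenomas.

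Whether normal intestine of APCMin mice differed from that of B6 mice was tested over the listed windows. The listing had not set these groups against each other, but a rank test of adenoma against both favours windows in which all normal samples lie close together, so few differences between them can be found here. In limma on log2 values over all listed windows, 0 of 17690 passed a Benjamini-Hochberg adjusted p of 0.05 (0%), and 706 (3.99%) had an unadjusted p under 0.05. None of the 24 windows of these genes passed, and 0 had an unadjusted p under 0.05. Their log2 differences, APCMin minus B6, had a median of -0.11, where that of all windows was -0.03.

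By gene, the log2 signal averaged over the windows was lower in APCMin normal intestine by 0.22 at *Ephb2*, with a two-sided exact permutation p of 0.1, the smallest that 3 samples against 3 allow, and an adjusted p of 0.70 over the 7 genes. The mean signal there was 0.389 ± 0.0400 rpm (SD, n = 3) against 0.458 ± 0.0441 rpm (SD, n = 3) in B6. At *Tnfrsf19* the difference was -0.28, with an exact permutation p of 0.2 and an adjusted p of 0.70. At the other 5 genes it lay between -0.09 and 0.20, with exact permutation p-values of 0.4 or more.

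Input DNA, sequenced without immunoprecipitation from B3, N4 and Ad7, was measured at the same DMRs. Its mean over the 12 losses was 0.150, 0.175 and 0.132 rpm in B3, N4 and Ad7, and over the 5 gains 0.310, 0.192 and 0.158 rpm. At 2 gains, *Ephb2* hyper 1 and *Tnfrsf19* hyper 1, the mean input of B3 and N4 was at or above the mean MeDIP signal of the 6 normal samples, with 0.330 against 0.183 rpm and 0.265 against 0.178 rpm. This was so at 20.4% of all hypermethylated DMRs, at 0 of the 12 losses, and at 5.25% of all hypomethylated DMRs. Set against the adenoma signal, the input of Ad7 was at or above the adenoma mean at 3 of the 12 losses, *Ephb2* hypo 2, hypo 3 and hypo 4, against 23.0% of all hypomethylated DMRs, and at 0 of the 5 gains against 4.36%. At *Ephb2* hypo 3 it was 0.39 rpm against 0.162 rpm. Input libraries held 3228908 to 5931425 reads, or at most 5.81 fragments at a DMR, and the part of input in these DMRs was not tested.

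The DNA of the DMRs held more CpG sites than the genome, which the minimum signal of the listing favoured, as the signal marks methylated CpG. The losses had a median of 10.5 CpG sites and the gains 8, against 9 and 8 in all DMRs of the same direction and 3 in 500 bp windows of the genome. In DMRs of 500 bp alone the medians were 9.5 and 7.5, against 8 and 7 in all DMRs of this length. The TCF/LEF core CTTTGAT was searched on both strands. It occurred in 1 of the 12 losses, *Ephb2* hypo 3, starting at position 136296734 of chromosome 4, and in none of the 5 gains. All listed losses held it in 11.4%, all listed gains in 6.66%, and 500 bp windows of the genome in 10.1%.

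Further genes of the pathway and of intestinal cells were counted in the same way, in 5 lists. The lists were a selection, chosen with earlier results of these data known, and did not hold the whole pathway. DMRs lay at 9 of 21 Wnt ligand and receptor genes, at 12 of 23 genes of signal transducers and nuclear factors, and at 4 of 19 other Wnt target and feedback genes. They lay at 14 of 22 other intestinal stem cell and crypt genes and at 5 of 24 genes of differentiated intestinal cells. Over all genes 16.6% held a DMR, and over protein coding genes 23.5%, with a median length of 20.4 kb with the upstream stretch. The median lengths of the lists were 27.7, 39.8, 20.6, 28.3 and 16.3 kb in the same order, and the shares were not corrected for length. Losses made up 12 of 18, 14 of 21, 13 of 16, 13 of 21 and 4 of 7 DMRs of the lists. These were 66.7%, 66.7%, 81.2%, 61.9% and 57.1%, against 63.3% of all listed DMRs. The 13 losses of the other Wnt target and feedback genes lay at 2 genes alone. Of all these genes *Cdhr2*, a protocadherin of the brush border, alone had a DMR in its promoter. Such a DMR was held by 1.53% of all genes and 1.56% of protein coding genes. That of *Cdhr2* was a loss at chr13:54803001-54803500 with a normal mean of 0.263 ± 0.0864 rpm (SD, n = 6) and an adenoma mean of 0.110 ± 0.0332 rpm (SD, n = 5).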

How the data were processed

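MeDIP-seq values of 11 ileum samples and 3 input libraries were used. The authors aligned 36-nt reads to mm9 with Bowtie 0.12.5, kept uniquely mapped reads, extended them to 300 nt, and averaged coverage over 500 bp windows every 250 bp with MEDIPS. The deposited rpm values are this coverage per 1000000 aligned reads, at 2 decimals. The deposited tables also hold the authors' ratios and p-values of adenoma against normal, which were not used. The deposited gene table held column descriptions alone, so RNA-seq (7 samples) was not analysed here.

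Genes came from gencode vM1 on NCBIM37 (mm9), and all deposited regions lay within its chromosomes. Member genes and lists were chosen with earlier results of these data known. Values of every sample are given for the DMR with the largest ratio per gene and direction and for any DMR in a promoter or CpG island, and list genes are named where a DMR lay in their promoter. Log2 values were taken after adding 0.05 rpm. APCMin and B6 normal tissue were compared with limma 3.58.1 (R 4.3.3), tested on simulated data, over all 17690 listed windows, and by exact permutation per gene. Depth came from the study's library totals, and fragments at a DMR were computed as rpm times aligned reads over 1000000 times length over 300. The median was 11.5 fragments per sample and DMR, a relative counting SD of 29.5%. This covers counting error only.

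Animals 4, 5 and 6 gave both tissues. Deviations from group means correlated with r of -0.05 to 0.03 in the 4 pairs of 1 animal and -0.03 to 0.07 in the 11 pairs of different animals. No pair of samples held the same values in more than 4.71% of windows. Sequences are shown for 5 of the 17 DMRs.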

Additional observations from a re-analysis of the deposited data

Results flagged for a closer look

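Within groups, 2 of 34 sets of values (17 DMRs, normal samples and adenomas) had a sample whose gap to the next was large for the range of the group, where chance gives about 1 in 20. At *Cd44* hypo 1 the normal sample N5 had 0.66 rpm, above the other normal samples with 0.43 to 0.51 rpm, a gap of 0.652 of the range. At *Ephb2* hypo 2 the normal sample N4 had 0.19 rpm, below the other normal samples with 0.28 to 0.33 rpm, a gap of 0.643 of the range. No adenoma stood apart in this way at any of the 17 DMRs.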

How the results depend on the processing

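The 272 recomputed log2 ratios of single DMRs all kept their direction, and 18 moved by more than the SD between adenomas, 11 of these with 0.5 rpm added. Adding the same value to both group means cannot change a direction, and the listing on these same samples favoured keeping it. With 0.5 rpm added the median log2 ratio became 0.23 over the gains and -0.36 over the losses. With samples left out in turn the medians ran from 0.38 to 0.46 and from -0.80 to -0.71. With the animal as a replicate block they were 0.46 and -0.76, and the block changed no direction. The DMR with the largest change was *Ephb3* with 0.5 rpm added (-0.52) and in the libraries labelled MeDIP4 (-1.11), and *Ephb2* hypo 4 with the block (-1.09). Requiring a ratio of group means past 2 left 9 of the 41 window and DMR rows. Among merged DMRs these were 0 gains and 3 losses, *Cd44* hypo 2, *Cd44* hypo 3 and *Ephb2* hypo 4. The windows left also included some of DMRs that did not pass when merged. These lay in *Ephb3*, with ratios of 0.451 and 0.497, and in *Ephb2* hypo 5, with 0.489. The share of the whole list past this ratio was not computed. Over all listed DMRs, with 0.05 rpm added, percentile 90 of the log2 ratio was 0.79 for gains and percentile 10 was -0.94 for losses. Windows whose groups do not overlap numbered 9 of 24 (37.5%) at these genes with all samples and 9 to 13 with a sample left out, against 48.9% and 55.2% to 60.6% of all windows. They numbered 18 in the libraries labelled MeDIP4, where 89.0% of all windows did so with fewer samples, and 20 windows had every adenoma on the listed side of its own normal intestine (91.0% of all windows). The share of genes with a DMR was 16.6% over all genes and 23.5% over protein coding genes. With promoters alone it was 1.53% over all genes and 0% over the 10 genes, from 70.0% with bodies. For APCMin against B6 normal intestine, 0 to 8 windows of the whole list passed with a sample left out, the 8 without N6, and 0 at these genes. Values at low signal rest on few fragments and on 2 decimals, so changes of 0.01 rpm cannot be resolved.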
